A study of Mus musculus with 8 samples.

Results

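The genes described here are 10 genes of iron handling, taken by name from the array's gene symbols: Slc11a1, Slc11a2, Slc40a1, Tfrc, Fth1, Ftl1, Lcn2, Aco1, Ireb2 and Hfe. They had 16 of the 25697 probes on the array, and all 10 genes were among the 18138 gene symbols. Every one of the 16 probes was detected on at least 2 arrays and was tested. RNA came from macrophages grown from the bone marrow of female C57bl/6J mice aged 8 weeks, cultured for 7 days in GM-CSF at 10 ng/ml. The array experiment compared wild type (WT) cells with cells of iNOS-/- mice, which lack the inducible nitric oxide synthase encoded by Nos2. Cells of each genotype were left unstimulated or were polarized to the inflammatory M1 state for 6 h with LPS at 200 ng/ml and IFN-γ at 10 ng/ml. All cells shared GM-CSF, and each of the 4 groups had 2 arrays. According to the methods the mice carried a targeted Nos2 allele in the germline (B6.129P2-Nos2tm1Lau/J), so every cell type of a culture carried it. The sources used here do not say whether the 2 arrays of a group came from separate mice or cultures, so p-values measure only the spread between these arrays, which may be technical.

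Macrophages take iron up bound to transferrin or from engulfed red cells, store it in ferritin and release it through ferroportin. Infection is known to turn this traffic round, since iron that is kept inside cells or bound to host proteins is withheld from bacteria. Messages for the transferrin receptor, ferritin and ferroportin carry iron-responsive elements, which are bound by the iron regulatory proteins encoded by Aco1 and Ireb2. Nitric oxide is known to act on both of these proteins. The genotypes are compared here for how iron gene messages differ when the cells cannot make nitric oxide through iNOS, a question the paper did not ask.

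Each array detected 11833 to 12673 of its probes, with a mean intensity of 155 to 224 before scaling. Arrays of the same group differed by a median of 0.161 to 0.188 on the log2 scale over the 13868 probes tested. The unstimulated arrays labelled iNOS-/- lay nearer to the WT M1 arrays, at 0.344 to 0.366, than to the WT unstimulated arrays, at 0.484 to 0.491. The Nos2 probe was undetected on all 4 unstimulated arrays. It read 7.45 and 7.04 on the WT M1 arrays and 7.52 and 7.69 on the M1 arrays labelled iNOS-/-. Nos2 did not separate the labels (log2 difference 0.36, SE 0.32, limma adjusted p = 0.397), and the probe cannot check the genotype, because the sources used here do not say which part of the gene is deleted. All directions between genotypes below rest on the labels.

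The macrophage label was met by all 10 macrophage markers listed, each detected on all 8 arrays. Their summed scaled intensity was 47710 to 47983 on WT unstimulated arrays and 55159 to 55854 on WT M1 arrays. It was 39694 to 40430 on unstimulated arrays and 57761 to 59981 on M1 arrays labelled iNOS-/-. The brightest of these markers were Lyz and Lyz2. Their means were 14.06 and 13.97 on WT unstimulated arrays and 14.44 and 14.37 on WT M1 arrays. The sum mostly follows them and says little about the dimmer markers. With polarization 4 markers were called higher and 1 lower in WT cells, and 4 higher and 4 lower in cells labelled iNOS-/-. Between the M1 groups 3 of these markers were called higher and 5 lower on arrays labelled iNOS-/-. Between the unstimulated groups 1 was called higher and 3 lower there. Dendritic cell markers were also present, and most of them differed between the groups. Their sum was 966 to 977 on WT unstimulated arrays, 17438 to 18175 on WT M1 arrays, 14393 to 15276 on unstimulated arrays labelled iNOS-/- and 40019 to 41531 on M1 arrays labelled iNOS-/-. Of the 10 dendritic cell markers, 9 were tested and Flt3 was detected on no array. On arrays labelled iNOS-/-, 6 were called higher between the M1 groups and 8 between the unstimulated groups, and none lower. The sum mostly follows its brightest markers, which on WT M1 arrays were Ccl17 and Il4i1, with means of 13.44 and 12.15. Itgax had means of 7.58 and 7.97 on WT unstimulated and M1 arrays and 7.96 and 7.56 on those labelled iNOS-/-. Of 9 erythroid markers 3 were tested, and none of these was detected on all arrays. Their sum was 3.51 to 9.24 on WT unstimulated arrays, 23.8 to 31.7 on WT M1 arrays, 24.9 to 27.7 on unstimulated arrays labelled iNOS-/- and 35.3 to 47.5 on M1 arrays labelled iNOS-/-. The part of these markers in the results below was not tested. In such bulk RNA, fewer cells of a type and less RNA per cell cannot be told apart.

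Sequence is shown for the member whose probe lies at an unusual place and for the pair with the widest range among the members detected on all 8 arrays. The first stretch is the start of the Ftl1 transcript region, 80 bases of RefSeq assembly GRCm38.p6 at chr7:45459837-45459916 on the minus strand, with a TATAAA box in capitals. The only Ftl1 probe covers positions 1 to 50 counted from the annotated transcription start, and the box lies inside the probe, at positions 18 to 23.
Ftl1 start region: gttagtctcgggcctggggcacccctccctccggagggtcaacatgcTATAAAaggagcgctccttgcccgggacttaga

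The Lcn2 promoter is given by the window of 300 bases around its start, chr2:32387690-32387989 on the minus strand of GRCm38.p6. The capitals mark a match to TTGCNNAA, a C/EBP motif, which begins 216 bases before the start. Of 32851 mouse promoters of the same length, 10.8% held this motif on either strand. The only Lcn2 probe, on which all its values rest, starts at position 416 of the transcript and is 50 bases long.
Lcn2 promoter: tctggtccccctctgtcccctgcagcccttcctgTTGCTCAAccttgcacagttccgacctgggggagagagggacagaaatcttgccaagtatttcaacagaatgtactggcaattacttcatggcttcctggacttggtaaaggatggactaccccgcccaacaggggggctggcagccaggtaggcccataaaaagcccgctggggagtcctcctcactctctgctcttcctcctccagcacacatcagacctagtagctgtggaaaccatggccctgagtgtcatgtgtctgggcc
Lcn2 probe: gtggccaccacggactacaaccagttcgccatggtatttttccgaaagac

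The Tfrc promoter shown lies at chr16:32608646-32608945 on the plus strand. The capitals mark ACGTG, the core of a hypoxia response element, 2 bases before the start of this entry. Tfrc has another annotated promoter, not shown, whose start lies downstream. The same ACGTG lies much farther before that start, so its place next to the start holds only for the entry shown. ACGTG was found in 19.6% of all promoters.
Tfrc promoter: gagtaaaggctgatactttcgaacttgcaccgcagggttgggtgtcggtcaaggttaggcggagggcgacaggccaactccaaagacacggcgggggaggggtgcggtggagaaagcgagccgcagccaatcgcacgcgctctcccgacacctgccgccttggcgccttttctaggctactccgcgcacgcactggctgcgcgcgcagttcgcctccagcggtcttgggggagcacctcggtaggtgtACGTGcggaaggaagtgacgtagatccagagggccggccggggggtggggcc

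RefSeq promoters were matched for 8 of the 10 genes, and not for Slc11a2 or Slc40a1. Both strands were searched for 8 motifs, which were TATAAA, TTCNNNGAA (GAS), the ISRE and κB motifs, TTGCNNAA, ACGTG, TGACNNNGC (ARE) and TTTNNCGC (E2F). No GAS, ISRE or E2F match was in any of the members' windows, and the promoters of Slc11a1, Aco1 and Ireb2 held none of the 8. These matches describe letters only.

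M1 polarization of WT cells was accompanied by higher Lcn2, Tfrc and Fth1 and by lower Slc11a1, Slc11a2 and Slc40a1. By the brightest probe of each gene, 3 members were higher and 3 lower, where 35.1% of all 13868 probes were called at an adjusted p under 0.05 (20.2% higher and 14.9% lower). The call of Fth1 depended on the scaling, as described below. Of the probes called in WT cells 57.6% were higher, and this share was 47.4% after quantile normalization. The median log2 change of the 10 members was -0.35, against 0.07 over all probes. In cells labelled iNOS-/-, M1 polarization was accompanied by higher Lcn2, Slc40a1, Ireb2 and Fth1 and by lower Tfrc, Aco1 and Hfe, where 50% of all probes were called (26.2% higher and 23.8% lower). The share of higher probes among those called was 52.4%, and 41.9% after quantile normalization. Their median change was 0.34, against 0.04 over all probes. The groups compared did not overlap for 9 of the 10 genes in WT cells and for all 10 in cells labelled iNOS-/-, where 71.2% and 77% of all probes did not overlap.

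Between the M1 groups, Lcn2, Slc40a1 and Ireb2 were higher and Tfrc, Aco1 and Hfe lower on the arrays labelled iNOS-/-. That is 3 members each way, where 48.5% of all probes were called (24.2% higher and 24.3% lower), and the median difference was 0.04 against 0 over all probes. The M1 groups did not overlap for 8 of the 10 genes, where 74.7% of all probes did not. Between the unstimulated groups, Tfrc was higher and Slc11a1, Slc11a2 and Slc40a1 were lower on the arrays labelled iNOS-/-, where 32.1% of all probes were called (15.9% higher and 16.2% lower). The median difference of the members was -0.32, against -0.02 over all probes. The unstimulated groups did not overlap for 8 of the 10 genes, where 70% of all probes did not. The response to polarization itself differed between genotypes for 6 members, where 41.9% of all probes were called (20.8% positive and 21.1% negative). It was more positive in cells labelled iNOS-/- for Slc11a1, Slc11a2, Slc40a1, Lcn2 and Ireb2 and more negative for Tfrc. All 5 comparisons share arrays, and whether the list stands apart from the other probes was not tested.

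**Figure D1:**
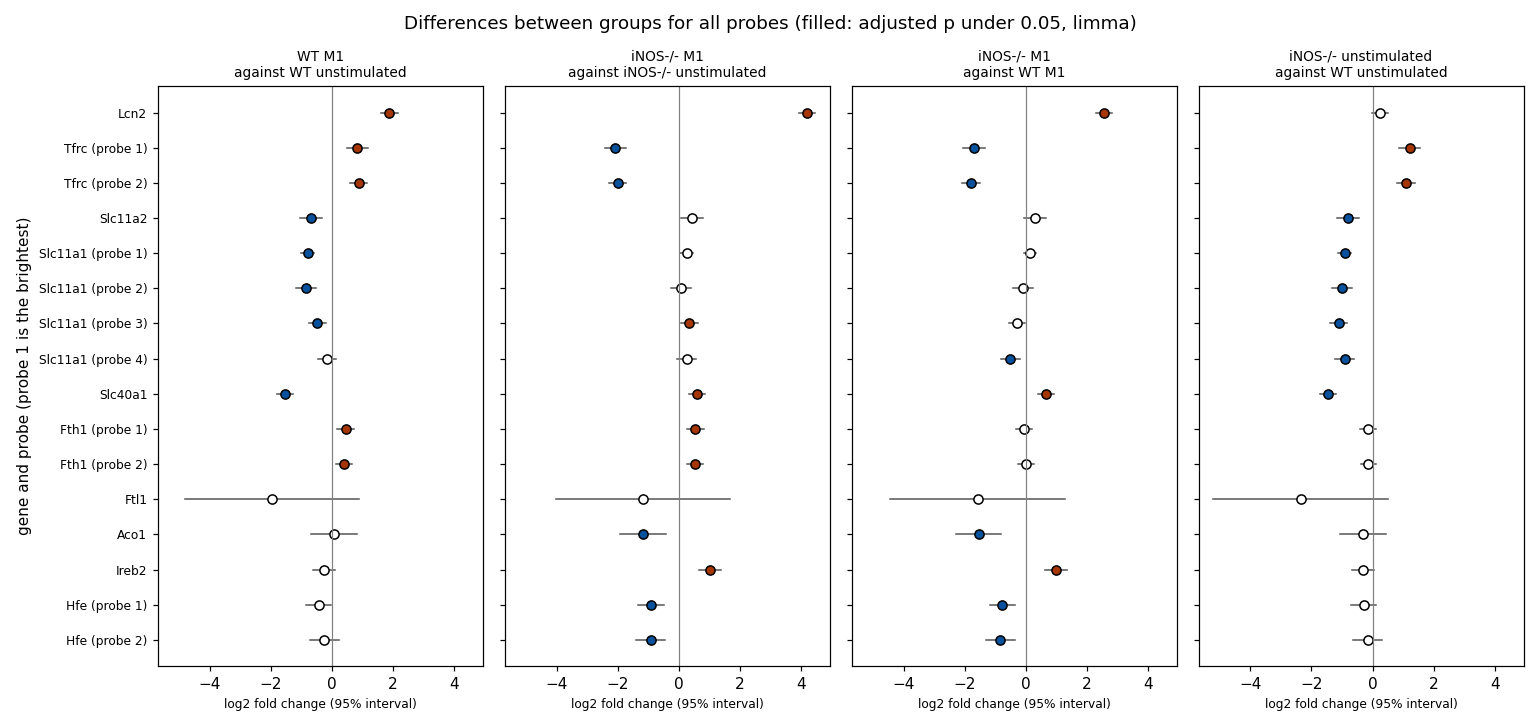
Log2 difference between groups (x axis, log2 intensity) for each of the 16 probes of the 10 genes, in the 4 pairwise comparisons of groups. Points are limma estimates, bars are 95% confidence intervals and filled points had an adjusted p under 0.05. Tfrc lies to the right of 0 in WT cells and to the left in cells labelled iNOS-/-, while Slc40a1 does the opposite.

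The widest range among the members was that of Lcn2, which encodes lipocalin 2, a secreted protein that binds bacterial siderophores and so keeps iron from bacteria. On the log2 scale it read 7.27 and 7.09 on WT unstimulated arrays and 9.08 and 9.04 on WT M1 arrays. It read 7.38 and 7.48 on unstimulated arrays labelled iNOS-/- and 11.55 and 11.68 on M1 arrays labelled iNOS-/-. The unstimulated arrays of both labels were low and close together, the WT M1 arrays lay between, and the M1 arrays labelled iNOS-/- were the highest without overlap. Lcn2 rose 3.68-fold in WT cells (log2 1.88, SE 0.11, limma adjusted p = 0.000261). It rose 18.2-fold in cells labelled iNOS-/- (log2 4.19, adjusted p = 1.97e-05). After polarization its level was 5.89-fold higher on arrays labelled iNOS-/- (log2 2.56, adjusted p = 0.000149), and the responses differed by 2.31 (SE 0.15, adjusted p = 0.000518). Without stimulation the genotypes differed by 0.25, with a 95% interval of -0.02 to 0.52 and an adjusted p of 0.137.

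Lipocalin 2 is also known as a protein of neutrophil granules. Granulocyte markers had a summed intensity of 1259 to 1269 on WT unstimulated arrays, 1549 to 1656 on WT M1 arrays, 1792 to 1869 on unstimulated arrays labelled iNOS-/- and 4046 to 4161 on M1 arrays labelled iNOS-/-. This sum was highest in the group in which Lcn2 was highest. The order of the other groups was not the same, since the sum on unstimulated arrays labelled iNOS-/- was above that of the WT M1 arrays and Lcn2 was below it. Without stimulation 6 of the tested markers were called higher and 1 lower on arrays labelled iNOS-/-, a comparison in which Lcn2 was not called. Between the M1 groups 3 of the tested markers were called higher and 1 was called lower on arrays labelled iNOS-/-. Cebpe, a granulocyte transcription factor, was the only tested marker with a lower mean there. Its means were 6.67 on WT M1 arrays and 5.65 on M1 arrays labelled iNOS-/-. S100a8, the brightest of the markers, had means of 10.13 and 11.52 on the same arrays, and S100a9 had 7.14 and 9.53. The markers named here were picked after their values were seen. Of the 12 granulocyte markers, 9 were tested, and the granule gene Mpo and Retnlg were detected on no array. Their part in the Lcn2 result was not tested.

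**Figure D2:**
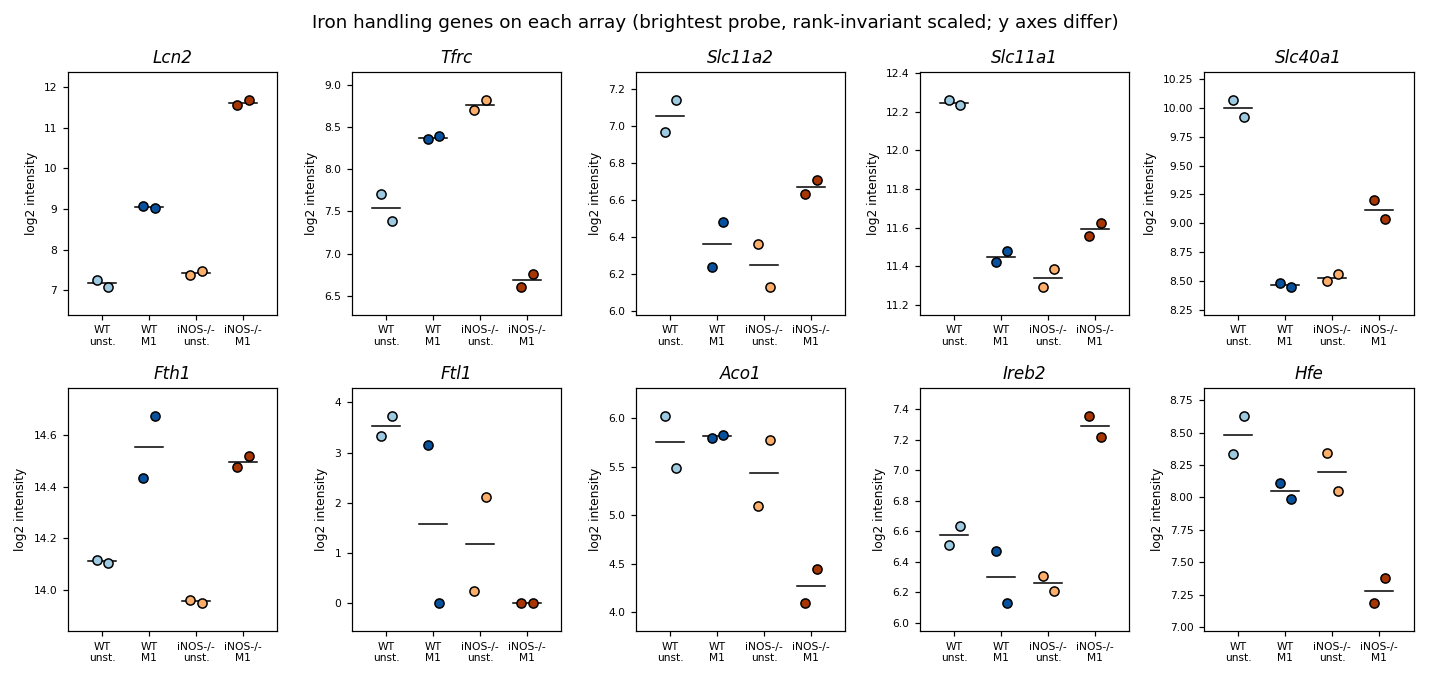
Log2 intensity (y axis) of the brightest probe of each of the 10 iron genes on each of the 8 arrays, with arrays grouped by label on the x axis. Points are arrays and horizontal bars are group means of n = 2. Lcn2 is highest and Tfrc lowest on the M1 arrays labelled iNOS-/-, and Slc40a1 and Slc11a1 are highest on the WT unstimulated arrays.

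Iron uptake was represented by Tfrc, the receptor that carries transferrin-bound iron into the cell, and its direction of change was opposite in the genotypes. Its brighter probe, which starts at position 4355 of the transcript, read 7.71 and 7.38 on WT unstimulated arrays and 8.36 and 8.39 on WT M1 arrays. It read 8.70 and 8.82 on unstimulated arrays labelled iNOS-/- and 6.61 and 6.76 on M1 arrays labelled iNOS-/-. No groups overlapped, and the group that was highest without stimulation became the lowest with it. Tfrc rose 1.78-fold in WT cells (log2 0.83, SE 0.14, limma adjusted p = 0.00889) and fell 4.22-fold in cells labelled iNOS-/- (adjusted p = 0.000223). On arrays labelled iNOS-/- it was 2.32-fold higher without stimulation (adjusted p = 0.00272) and 3.23-fold lower after polarization (adjusted p = 0.000602).

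A second Tfrc probe, from position 4269, behaved in the same way. Its log2 changes were 0.87 in WT cells and -2.01 in cells labelled iNOS-/-. The responses differed by -2.91 (SE 0.20, limma adjusted p = 0.000561) for the brighter probe and by -2.87 (SE 0.16, adjusted p = 0.000388) for the second.

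Tfrc is known to be abundant in dividing cells, and the markers of dividing cells moved with it. Their summed intensity was 938 to 990 on WT unstimulated arrays, 2468 to 2583 on WT M1 arrays, 2874 to 2905 on unstimulated arrays labelled iNOS-/- and 1159 to 1160 on M1 arrays labelled iNOS-/-. Of the 10 markers, 8 were tested and Ccnb2 and Bub1 were detected on no array. In WT cells 7 of the 8 rose and 1 fell, while in cells labelled iNOS-/- none rose and 7 fell. Without stimulation 7 were higher and 1 lower on arrays labelled iNOS-/-, and after polarization 7 were lower. The order of the groups was not the same, since the sum on M1 arrays labelled iNOS-/- was above that of the WT unstimulated arrays and Tfrc was below it. The part of cell division in the Tfrc result was not tested.

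**Figure D3:**
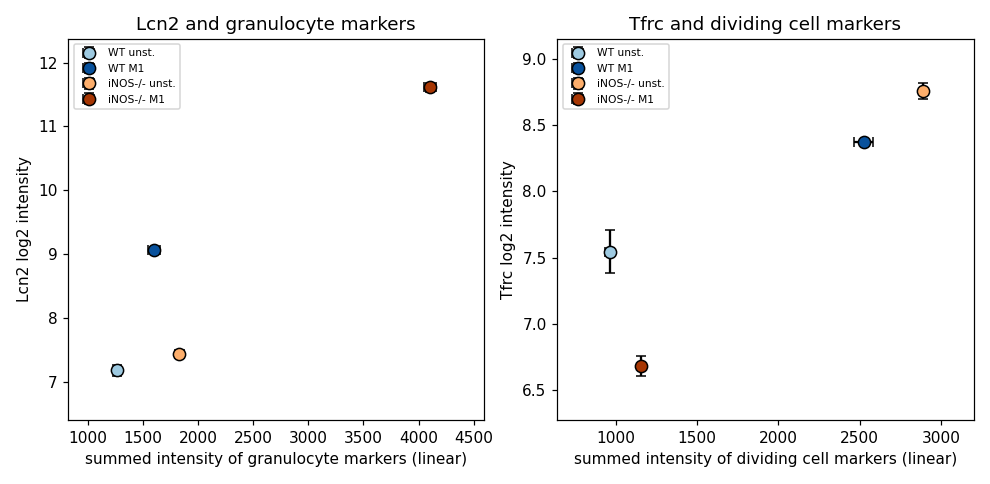
Log2 intensity of Lcn2 and Tfrc (y axes) against the summed scaled intensity of granulocyte and dividing cell markers (x axes, linear). Points are group means and bars span the 2 arrays of a group. Granulocyte markers reach 4046 to 4161 and dividing cell markers 1159 to 1160 on the M1 arrays labelled iNOS-/-.

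Slc11a2 encodes the divalent metal transporter that moves iron out of endosomes after transferrin uptake. It read 6.97 and 7.14 on WT unstimulated arrays, 6.24 and 6.48 on WT M1 arrays, 6.36 and 6.13 on unstimulated arrays labelled iNOS-/- and 6.63 and 6.71 on M1 arrays labelled iNOS-/-. The WT unstimulated arrays stood above the others. It fell by 0.69 on the log2 scale in WT cells (SE 0.14, limma adjusted p = 0.0156) and was 0.81 lower without stimulation on arrays labelled iNOS-/- than on WT arrays (adjusted p = 0.0102). In cells labelled iNOS-/- the change with polarization was 0.42, with a 95% interval of 0.07 to 0.77 and an adjusted p of 0.0523. The responses differed by 1.12 (SE 0.20, adjusted p = 0.00853). Both called differences against the WT unstimulated arrays were lost without the second of these, at adjusted p of 0.0779 and 0.0568. The fall in WT cells was also lost without the first WT M1 array, at 0.0689, and the genotype difference without the second unstimulated array labelled iNOS-/-, at 0.0543.

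Slc11a1 encodes the metal transporter of the phagosome membrane known as NRAMP1, and C57BL/6 mice are known to carry a form of it that lacks function. Its brightest probe read 12.26 and 12.23 on WT unstimulated arrays and 11.42 and 11.48 on WT M1 arrays. It read 11.29 and 11.39 on unstimulated arrays labelled iNOS-/- and 11.56 and 11.62 on M1 arrays labelled iNOS-/-. Only the WT unstimulated arrays stood apart from the rest by more than 0.5. The level fell 1.74-fold in WT cells (log2 -0.80, SE 0.08, limma adjusted p = 0.00205) and was 1.87-fold lower without stimulation on arrays labelled iNOS-/- (log2 -0.91, adjusted p = 0.00141).

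In cells labelled iNOS-/- the brightest Slc11a1 probe changed by 0.25 with polarization, with a 95% interval of 0.04 to 0.46 and an adjusted p of 0.0551. That value turned to -0.39, past the threshold, when arrays were quantile normalized, so no direction can be given. The responses of the genotypes differed by 1.05 (SE 0.12, adjusted p = 0.00216). The gene has 4 probes, and all 4 were lower without stimulation on arrays labelled iNOS-/-, by 0.91 to 1.11 on the log2 scale. The dimmest probe, from position 1113, did not pass the test in WT cells (log2 -0.16, adjusted p = 0.351) and was lower between the M1 groups (log2 -0.50, adjusted p = 0.0201). That call was lost without the second WT M1 array (log2 -0.42) or the first M1 array labelled iNOS-/- (log2 -0.38). The difference was -0.29 at the probe from position 948 and -0.08 at that from position 2014. At the brightest probe it had the other sign, at 0.14 (limma adjusted p = 0.22). The probe from position 948 gave 0.34 in cells labelled iNOS-/- (adjusted p = 0.0476), a call that held under 5 of 17 alternatives and was lost with any array other than a WT unstimulated one left out. The probe from position 2014 gave 0.06.

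Slc40a1 encodes ferroportin, the exporter through which iron leaves the cell. It read 10.07 and 9.92 on WT unstimulated arrays and 8.48 and 8.45 on WT M1 arrays. It read 8.49 and 8.56 on unstimulated arrays labelled iNOS-/- and 9.20 and 9.04 on M1 arrays labelled iNOS-/-. The WT M1 arrays and the unstimulated arrays labelled iNOS-/- lay close together, the WT unstimulated arrays were highest, and the M1 arrays labelled iNOS-/- lay between. Slc40a1 fell 2.89-fold in WT cells (log2 -1.53, SE 0.10, limma adjusted p = 0.000472). It rose 1.51-fold in cells labelled iNOS-/- (log2 0.59, adjusted p = 0.00599). Without stimulation it was 2.77-fold lower on arrays labelled iNOS-/- (log2 -1.47, adjusted p = 0.000611), and after polarization 1.57-fold higher (log2 0.65, adjusted p = 0.00476). The responses differed by 2.12 (SE 0.15, adjusted p = 0.000594).

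Iron storage was represented by Fth1, the ferritin heavy chain that oxidizes iron for storage, and by Ftl1, the ferritin light chain. Fth1 was one of the brightest probes of the array. Its probe from position 692 read 14.12 and 14.11 on WT unstimulated arrays and 14.43 and 14.67 on WT M1 arrays. It read 13.96 and 13.95 on unstimulated arrays labelled iNOS-/- and 14.48 and 14.52 on M1 arrays labelled iNOS-/-. The M1 arrays of both labels were above the unstimulated arrays and overlapped each other. Fth1 rose by 0.44 in WT cells (SE 0.11, limma adjusted p = 0.0264) and by 0.54 in cells labelled iNOS-/- (adjusted p = 0.00896). Between the M1 groups it differed by -0.06, with a 95% interval of -0.32 to 0.21 (adjusted p = 0.688).

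The rise of Fth1 was present only after the arrays were scaled. Before scaling, the same probe read 20195 and 19594 on WT unstimulated arrays, 19077 and 20177 on WT M1 arrays, 18891 and 19741 on unstimulated arrays labelled iNOS-/- and 20392 and 19320 on M1 arrays labelled iNOS-/-. These intensities overlapped between all groups, at 86.0% to 100% of the brightest probe of each array. Unscaled, its log2 change was -0.02 in WT cells and 0.04 in cells labelled iNOS-/-, while the scale factors of the arrays differed by 0.46 and 0.50 on the same scale. With quantile normalization the changes were 0.07 and 0.01, and neither passed the test. The 50 brightest probes of the array had median changes of 0.18 and 0.47. These intensities do not settle whether Fth1 changed.

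**Figure D4:**
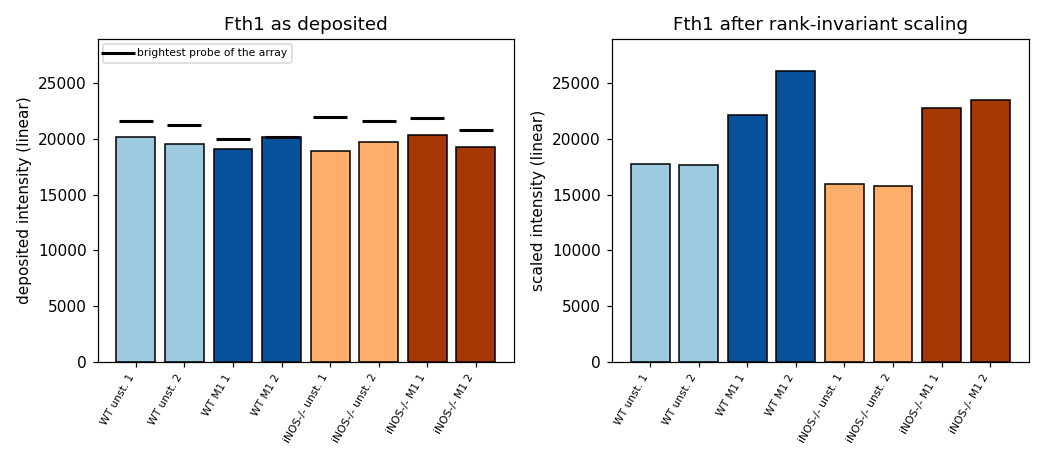
Intensity of the Fth1 probe from position 692 on each array as deposited and after scaling (y axes, linear intensity). Bars are single arrays, 2 per group, and the black marks show the brightest probe of each array before scaling. The deposited values lie between 18891 and 20392 in all groups, and the difference between unstimulated and M1 arrays appears only after scaling.

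Ftl1 read 3.34 and 3.73 on WT unstimulated arrays and 3.14 and 0 on WT M1 arrays, where 0 is the floor. It read 0.24 and 2.11 on unstimulated arrays labelled iNOS-/- and 0 on both M1 arrays labelled iNOS-/-. Its probe was detected on 3 of the 8 arrays, which were both WT unstimulated arrays and 1 WT M1 array. No Ftl1 comparison passed the test. Without stimulation it read at least 2.34-fold lower on arrays labelled iNOS-/-, but this was not called (limma adjusted p = 0.178). The log2 difference had a 95% interval of -5.21 to 0.50, which includes no difference, and ranged from -3.29 to 0 under the alternatives. Since the probe, shown above, covers only the first bases of the annotated transcript, its level is that of RNA that holds these bases. The 2 probes of Ftl2, a near copy, were detected on no array.

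The messages of the 2 iron regulatory proteins moved in opposite directions in cells labelled iNOS-/-, and protein was not measured. Aco1 encodes the cytosolic aconitase that becomes iron regulatory protein 1 when it loses its iron-sulphur cluster. It read 6.02 and 5.49 on WT unstimulated arrays, 5.80 and 5.83 on WT M1 arrays, 5.09 and 5.78 on unstimulated arrays labelled iNOS-/- and 4.10 and 4.44 on M1 arrays labelled iNOS-/-. The last were below all other arrays, which overlapped. Aco1 fell by 1.17 on the log2 scale in cells labelled iNOS-/- (SE 0.30, limma adjusted p = 0.0229), and after polarization it was 2.92-fold lower there than on WT arrays (adjusted p = 0.00946). In WT cells it changed by 0.06, with a 95% interval of -0.69 to 0.80. The difference of the responses, -1.22, did not pass the test (SE 0.42, adjusted p = 0.0671). The fall in cells labelled iNOS-/- was lost without the second unstimulated array (-0.82, adjusted p = 0.0861) or the first M1 array (-0.99, adjusted p = 0.1) of that label.

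Ireb2 encodes iron regulatory protein 2, which is broken down when iron is plentiful. It read 6.51 and 6.64 on WT unstimulated arrays, 6.47 and 6.13 on WT M1 arrays, 6.31 and 6.21 on unstimulated arrays labelled iNOS-/- and 7.35 and 7.22 on M1 arrays labelled iNOS-/-. Only the last group stood apart. Ireb2 rose 2.04-fold in cells labelled iNOS-/- (log2 1.03, SE 0.14, limma adjusted p = 0.0027), and after polarization it was 1.98-fold higher there than on WT arrays (log2 0.99, adjusted p = 0.00359). In WT cells it changed by -0.27, with a 95% interval of -0.63 to 0.09 (adjusted p = 0.202). The responses differed by 1.30 (SE 0.20, adjusted p = 0.00582).

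Hfe encodes an MHC class I-like protein that binds the transferrin receptor and takes part in the control of hepcidin. Its brighter probe, from position 1509, read 8.34 and 8.63 on WT unstimulated arrays, 8.11 and 7.99 on WT M1 arrays, 8.34 and 8.05 on unstimulated arrays labelled iNOS-/- and 7.19 and 7.38 on M1 arrays labelled iNOS-/-. The M1 arrays labelled iNOS-/- were below all others. Hfe fell 1.88-fold in cells labelled iNOS-/- (log2 -0.91, SE 0.16, limma adjusted p = 0.00664) and was 1.70-fold lower there than on WT arrays after polarization (adjusted p = 0.0132). The second probe gave -0.92 and -0.83 for the same differences, both past the threshold. The first of these was lost at that probe without the first unstimulated array labelled iNOS-/- (adjusted p = 0.0523), and the other without the first WT M1 array (adjusted p = 0.0767). The difference between M1 groups at the brighter probe was lost without the first WT M1 array (adjusted p = 0.0648) or the first M1 array labelled iNOS-/- (adjusted p = 0.0623). In WT cells neither probe passed the test, at -0.43 and -0.25, and the responses were not shown to differ (-0.48, adjusted p = 0.151).

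Across the 8 arrays, the genes whose profile was most like that of Lcn2 among 9687 probes compared were Ddx58, a sensor of viral RNA, with a Pearson r of 0.999, and Trim30, with 0.998. The Tfrc profile was most like those of Blm, a DNA helicase, with r of 0.994, and Rpa3, a subunit of the single-stranded DNA-binding protein RPA, with 0.991. Aco1, the third by range among members detected on all arrays, which leaves out Ftl1, was most like Ssbp4 and Arsb, each with r of 0.966. The 8 points of each correlation are the same arrays in 4 groups, so these values describe shared group differences.

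A wider list of other iron genes covered uptake, export, storage, regulators, haem and iron-sulphur cluster genes. Of its 66 symbols 58 were on the array and 46 were tested. In WT cells 6 rose and 10 fell, which is 34.8% of those tested, and in cells labelled iNOS-/- 12 rose and 14 fell, which is 56.5%. Between the M1 groups 5 were higher and 12 lower on arrays labelled iNOS-/- (37%), and between the unstimulated groups 3 were higher and 12 lower (32.6%). The responses differed for 14 genes (30.4%). These shares lie beside 35.1%, 50%, 48.5%, 32.1% and 41.9% of all probes. The list's median changes were -0.22, -0.15, -0.29, -0.32 and 0.03 in that order.

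Among the regulators of the wider list, Hamp encodes hepcidin, the peptide that makes ferroportin be degraded. It read 0.30 and 2.70 on WT unstimulated arrays and 4.19 and 4.12 on WT M1 arrays, 0 on both unstimulated arrays labelled iNOS-/- and 5.80 and 5.94 on M1 arrays labelled iNOS-/-. It was detected on 5 arrays, and the M1 arrays of both labels were the highest. It rose at least 11.8-fold in cells labelled iNOS-/- (limma adjusted p = 0.00192) and by 2.65 in WT cells (SE 0.74, adjusted p = 0.0431), a call lost under most alternatives. Hamp2, its near copy, was at least 3.15-fold lower without stimulation on arrays labelled iNOS-/- (adjusted p = 0.0202), and the signals of such similar genes may not be separate. The Hamp2 call was lost without either WT unstimulated array (adjusted p = 0.0877 and 0.0809) or the second unstimulated array labelled iNOS-/- (0.0905), and the difference was 0 with a floor of 16. Hif1a, the oxygen-regulated factor, rose by 2.75 in cells labelled iNOS-/- (adjusted p = 0.000645). Its level was 1.07 higher there than on WT arrays after polarization (adjusted p = 0.0198), a call lost without either WT M1 array (adjusted p = 0.0821 and 0.0695) or the first M1 array labelled iNOS-/- (0.0871). Epas1, its relative HIF-2α, was at least 1.65-fold lower without stimulation on arrays labelled iNOS-/- (adjusted p = 0.0288). This call held under 8 of 16 alternatives, and the difference was 0 with a floor of 16. It was lost without the first WT unstimulated array (adjusted p = 0.122), either WT M1 array (0.0556) or either unstimulated array labelled iNOS-/- (0.13 and 0.0775).

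Genes of iron movement in the wider list changed as well. Cp, the ferroxidase ceruloplasmin that works with ferroportin, rose by 1.79 in WT cells (limma adjusted p = 0.00462) and by 1.08 in cells labelled iNOS-/- (adjusted p = 0.0152). It was 0.89 higher without stimulation on arrays labelled iNOS-/- (adjusted p = 0.0437), a call lost under most alternatives. Slc25a37, the mitochondrial iron importer mitoferrin 1, rose in both genotypes, by 0.62 (adjusted p = 0.022) and 1.21 (adjusted p = 0.00136). The rise in WT cells was lost without the second WT unstimulated array (adjusted p = 0.0968) or either WT M1 array (0.0718 and 0.0941). Lrp1, a receptor that takes up haem bound to haemopexin, fell in both genotypes, by 0.80 in WT cells (adjusted p = 0.00529) and by 0.73 in cells labelled iNOS-/- (adjusted p = 0.00412). Cd163, the receptor for haemoglobin bound to haptoglobin, fell at least 1.18-fold in cells labelled iNOS-/- and was at least 1.27-fold lower there than on WT arrays after polarization, and both Cd163 differences were 0 with a floor of 16. Ncoa4, the receptor that carries ferritin to autophagy, read 8.10 and 8.06 on WT unstimulated arrays and 6.38 and 6.03 on unstimulated arrays labelled iNOS-/-, without overlap. It was 1.88 lower on the latter (adjusted p = 0.00199).

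Haem and iron-sulphur cluster genes moved in both directions. Slc46a1, a haem and folate transporter, fell by 1.20 in WT cells (limma adjusted p = 0.00478) and at least 2.23-fold in cells labelled iNOS-/- (adjusted p = 5.45e-05), where it was undetected on both M1 arrays. It was at least 1.38-fold lower there than on WT arrays after polarization. With a floor of 16 these last differences were -0.11 and 0, past no threshold. Alad, an early enzyme of haem synthesis, fell by 1.35 in cells labelled iNOS-/- (adjusted p = 0.000553) and was 1.32 lower there than on WT arrays after polarization. Uros, a later enzyme of the same pathway, was 0.89 higher without stimulation on arrays labelled iNOS-/- (adjusted p = 0.0275), a call lost without the second WT unstimulated array (adjusted p = 0.094) or either unstimulated array labelled iNOS-/- (0.0641 and 0.123). Glrx5, a glutaredoxin of cluster assembly, fell by 0.78 in WT cells (adjusted p = 0.00907). It was also called lower with polarization in cells labelled iNOS-/-, where its mean went from 9.11 to 8.28. Nubp1, an assembly factor for cytosolic clusters, was 0.56 higher without stimulation on arrays labelled iNOS-/- (adjusted p = 0.00947), a call lost without the first WT unstimulated array (adjusted p = 0.0531). After polarization Nubp1 and Iscu, the cluster scaffold, were 0.61 and 0.57 higher on arrays labelled iNOS-/-, but these values were 0.17 and 0.06 after quantile normalization, past no threshold.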

How the data were processed

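RNA of 8 arrays, 2 for each of 4 groups, was measured on Illumina mouse bead arrays, which the labels name both MouseRef-8 v2.0 and MouseWG-8 v2.0. The labels gave each array's group and replicate number. The authors deposited the mean intensity of each probe, not normalized between arrays, from GenomeStudio (GSGX 1.9.0 in the file header). The deposited table also gives a p-value of detection for every probe on every array. The labels and methods describe background subtraction, rank-invariant normalization, a floor of 1 and limma, version 3.14.4 in the submitters' processing notes. The file header names no background subtraction, but undetected probes lie around 0, so none was subtracted again.

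From these values, each array was multiplied by the slope of a line without intercept, fitted robustly with MASS 7.3.60.0.1, of the mean array on that array. The line used probes whose rank moved by less than 0.05, with ranks between 0.5 and 0.9 of all probes. Values under 1 were set to 1 before log2 transformation. A probe was tested if at least 2 arrays had detected it (p-value under 0.05). With limma 3.58.1 in R 4.3.3, lmFit and eBayes fitted 1 mean per group over all 8 arrays, with Benjamini-Hochberg adjustment over 13868 probes. Fits were tested on simulated data, where many true changes were missed and the share of false calls was above the threshold. That was a single run in which far fewer probes were changed than were called here, so these shares may not hold for these fits. Intervals are 95% and not adjusted. A gene with several probes is counted by its brightest. A probe undetected on both arrays of a group has only a bound there, and "at least N-fold" divides the brighter group's mean by that of the dim group, with each dim array raised to the lowest intensity at which it detected any probe. The number of arrays limits the precision, and probe levels are not compared between genes.

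All members are named. From the wider list, the 3 largest called changes each way in each comparison are named, among genes whose groups did not overlap and whose higher group was detected on both arrays. For the difference of the responses, the genes had to be detected on all 8 arrays. Like profiles are given for the 3 members with the widest range among those detected on all 8 arrays. The members, gene lists and motifs were chosen with earlier results of these data known. Alternatives were other scalings (quantile, and neqc, which corrects background with inferred negative controls and an offset of 16), a floor of 16, other detection filters, a replicate block, an intensity trend, single comparisons and each array left out. An item of a marker list is not reported here.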

Additional observations from a re-analysis of the deposited data

Results flagged for a closer look

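The response to polarization differed between the genotypes, by the interaction term in limma, for 6 of the 10 iron genes. The difference, as the log2 response of cells labelled iNOS-/- minus that of WT cells, was 2.31 for Lcn2 and 2.12 for Slc40a1. It was -2.91 and -2.87 for the 2 Tfrc probes and 1.30 for Ireb2. It was 1.12 for Slc11a2 and 1.05, 0.92 and 0.82 for 3 of the 4 Slc11a1 probes. Under the alternatives these 3 Slc11a1 values went as low as 0.48, 0.46 and 0.57. Tfrc and Slc40a1 each moved in opposite directions in the genotypes, with both responses past the threshold.

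In the wider iron list, the largest differences each way in the same test among genes detected on all arrays were Hif1a (1.91), Blvrb (1.10), an enzyme that reduces biliverdin, Iscu (1.06), Alad (-1.14), Uros (-0.98) and Nfs1 (-0.85), the desulphurase of cluster assembly. The Uros call held under 4 of 16 alternatives and the Nfs1 call under 12 of 16. The Blvrb and Iscu calls held under all 16, but their sizes ranged from 0.50 to 1.18 and from 0.44 to 1.11. Cd163 and Slc46a1 also passed this test, but both were undetected on the M1 arrays labelled iNOS-/-, so no size is given. Ncoa4 passed it as well. With 41.9% of all probes called in this comparison, such differences were common on the array.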

How the results depend on the processing

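The number of iron genes called stayed within 1.5 times its value under every alternative run, at 4 to 8 in WT cells, 6 to 9 in cells labelled iNOS-/-, 5 to 8 between M1 groups, 3 to 5 between unstimulated groups and 6 to 8 for the difference of the responses. The calls of Lcn2, Tfrc and Slc40a1 given in the report, and those of Ireb2, held under all of them. The intercept in the scaling line, and all alternatives for the wider list and Nos2, were chosen after seeing the data. In the wider list the count was 22 in place of 14 for the difference of the responses with neqc, 26 in place of 17 between M1 groups with an intensity trend, and 10 in place of 16 in WT cells with only 4 arrays fitted. With an array left out it was 8 to 15 in WT cells, 18 to 26 in cells labelled iNOS-/-, 14 to 18 between M1 groups, 7 to 14 between unstimulated groups and 10 to 13 for the difference of the responses.

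Signs turned as follows, and the cause was not tested. Under quantile normalization and neqc, the Slc11a1 probe from position 2210 gave -0.39 under both in cells labelled iNOS-/- and -0.34 and -0.33 between M1 groups, all called, and the probe from position 2014 gave -0.38 and -0.37 in cells labelled iNOS-/-, of which only -0.37 was called. Aco1 in WT cells gave -0.10 and -0.09, the second Fth1 probe between M1 groups -0.11, and both Fth1 probes -0.06 for the difference of the responses. With the intercept, Fth1 gave -0.08 between M1 groups and -0.05 for the difference of the responses, and Ftl1 0.08 between M1 groups. None of these Aco1, Fth1 and Ftl1 values passed the test. With an array left out, Aco1 ranged from -0.21 to 0.32 in WT cells and from -0.66 to 0.02 between unstimulated groups, Slc11a1 (position 2014) from -0.17 to 0.01 between M1 groups, Fth1 from -0.18 to 0.06 (position 692) and -0.07 to 0.08 (position 767) between M1 groups and from -0.02 to 0.22 (position 692) for the difference of the responses, and Ftl1 from -0.79 to 2.35 for that difference. Of 1850 values of single probes under the alternatives, 1660 kept their direction and side of the threshold, 132 lost and 32 gained a call, and 26 changed sign. The median change of all probes moved by -0.13 and -0.17 in the responses of WT cells and cells labelled iNOS-/- with quantile normalization, by -0.11 in both with neqc, and by up to 0.28 with the intercept.

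Arrays with the same replicate number did not deviate together (correlations -0.034 to 0.027), so the numbers name arrays only. With a replicate block, 4288 probes were called in WT cells, 6601 in cells labelled iNOS-/-, 6271 and 3887 between M1 and unstimulated groups and 5314 for the difference of the responses. Among members the block removed only the calls of the second Fth1 probe in WT cells (0.39, adjusted p = 0.0555) and of the Slc11a1 probe from position 948 in cells labelled iNOS-/- (0.34, adjusted p = 0.0744). The rise of Hamp in WT cells and the unstimulated difference of Cp were lost under most alternatives. With 2 arrays per group, low signals such as Ftl1 and Aco1 limit what can be shown.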
